A study of Mus musculus with 4 samples.

Results

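Epithelial-mesenchymal transition (EMT) is driven by a small set of transcription factors, and 10 genes that encode such factors or closely related factors of mesenchymal cells are described here: Snai1, Snai2 and Snai3, Twist1 and Twist2, Zeb1 and Zeb2, Prrx1 and Prrx2, and Tcf21. They were found by gene name among the non-control probes of a mouse expression array and are 10 of its 34821 gene names, with 13 of its 55681 probes. After a filter on dim probes 8 of the 10 could be tested, among 24596 genes tested in all. Prrx2 and Tcf21 could not, and their values are given separately.

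The study set islet-like clusters, on 2 arrays, against islets of Langerhans, also on 2 arrays. All RNA was from the pancreas of male Swiss albino mice aged 10 to 12 weeks, killed in groups of 2 to 4, and the labels name no transgene or deletion. The clusters were grown from fibroblast-like, attached pancreatic cells that the submitters call MSC-like (mesenchymal stromal cell-like). These were passaged in serum and then held for 10 days in serum-free medium in low-adherence dishes, with 0.3 mM taurine from day 3 and 100 mM nicotinamide, 3 mM taurine and the peptide hormone GLP-1 on day 7. The islets were flushed from the same kind of pancreas digest after 48 h in serum-containing culture, although other labels call them freshly isolated. Culture time, passage, serum and induction therefore differ together between the groups and cannot be told apart, and the starting MSC-like cells were not analysed here. Nothing in the labels says that replicates were separate pools of mice. The p-values therefore reflect array-to-array spread that could be purely technical.

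In EMT, epithelial cells lose their junctions and polarity and take up the shape and matrix of mesenchymal cells. SNAIL proteins (Snai1 to Snai3) and ZEB proteins (Zeb1, Zeb2) are zinc finger repressors that bind the E-box CACCTG and its reverse complement CAGGTG, classically in the promoter of the E-cadherin gene. TWIST proteins and TCF21 are basic helix-loop-helix factors that pair with E proteins, and PRRX proteins are paired-type homeodomain factors of embryonic and adult connective tissue. In the pancreas, fibroblasts and stellate cells are mesenchymal, whereas endocrine, acinar and duct cells are epithelial.

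Of the 8 factors tested, 7 were higher in islet-like clusters and 1, Snai3, was lower. Over all genes tested, 26.6% were higher in clusters, 28.2% were lower, and 54.8% were called in one direction or the other. Twist1 passed the filter on dim probes only through the clusters and Snai3 only through the islets, so their calls are not independent of it. The 7 higher factors had log2 fold changes (clusters minus islets, here and throughout) between 4.07 for Zeb1 and 8.73 for Twist1. The median over the 8 was 5.50, against -0.10 over all genes tested. The 2 arrays of a group lay close together. Over the 8, their median difference was 0.21 between the cluster arrays and 0.27 between the islet arrays. Over all genes tested these differences were 0.24 and 0.23. RNA of whole samples was measured, so fewer cells of a type and less RNA per cell cannot be told apart.

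**Figure D1:**
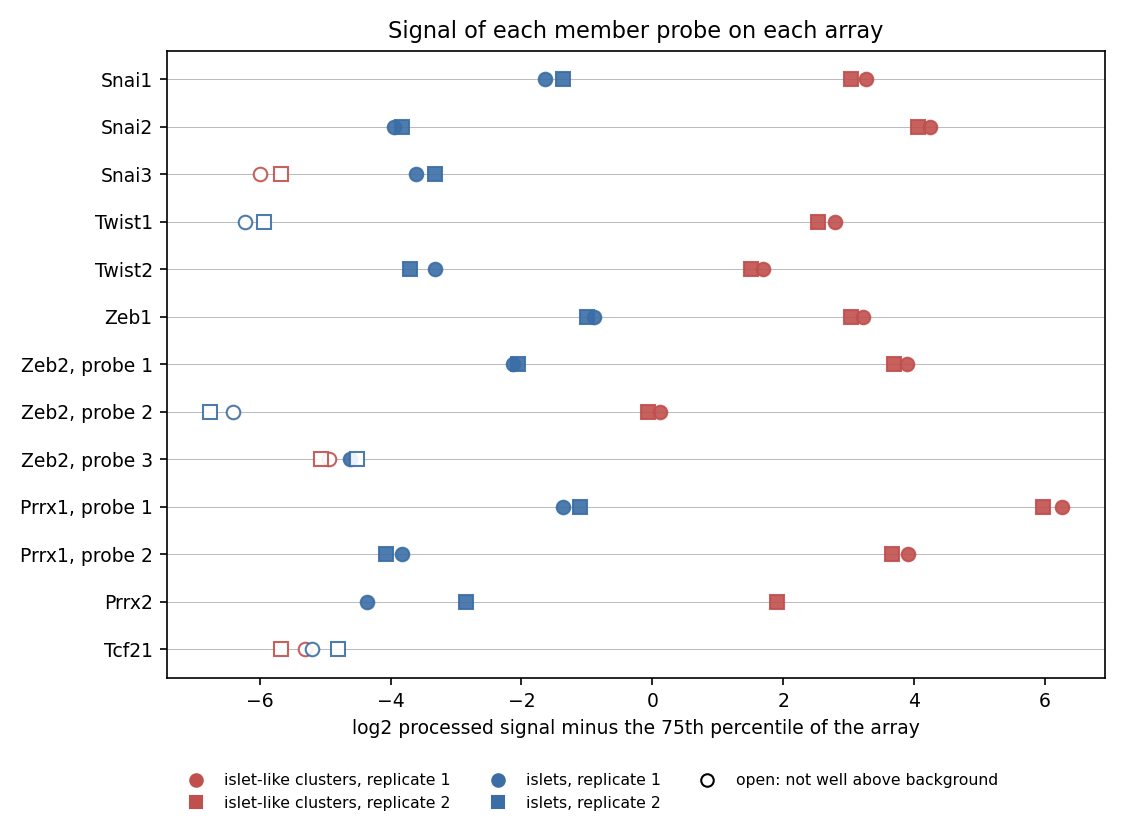
Log2 processed signal minus the 75th percentile of the array (x axis) for each of the 13 probes (rows), with circles for replicate 1 and squares for replicate 2 of islet-like clusters (red) and islets (blue), and open symbols for signals not well above background. Snai1, Snai2, both Twist genes, Zeb1 and both Prrx1 probes sit far to the right in clusters, Snai3 lies to the left, and Tcf21 is open on all arrays. A position compares arrays within a row and not one probe with another.

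Signals below are log2 processed signal minus the 75th percentile of the array, so that a value of 0 stands at that percentile. Snai1 is the best studied SNAIL factor and represses E-cadherin. Snai1 had signals of 3.26 and 3.04 in clusters, against -1.64 and -1.36 in islets. Both cluster arrays thus lay well above both islet arrays, and the probe was well above background on all 4. Snai1 averaged 3.15 ± 0.16 in clusters and -1.50 ± 0.20 in islets (SD, n = 2 each), a fold change of 4.65 ± 0.24 (SE) on the log2 scale, or 25.1-fold (limma, adjusted p = 2.95e-07), and 4.04 with normexp background correction, which adds an offset of 50 to the signal. Its probe lies at chr2:167368073-167368132 on the plus strand (mm9).

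Snai2, also called Slug, is the SNAIL factor of migrating neural crest. Its signals were 4.25 and 4.06 in clusters, against -3.95 and -3.82 in islets. Snai2 was well above background on all 4 arrays, and the groups lay far apart, with a log2 fold change of 8.04 ± 0.23 (263-fold, limma adjusted p = 1.16e-08). With normexp the Snai2 value was 6.07. The probe lies at chr16:14709361-14709420, plus strand, mm9.

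Snai3, the least studied of the 3 family members, went the other way. Its signals were -5.99 and -5.67 in clusters, against -3.61 and -3.32 in islets. It was detected in islets, dimly, and was not well above background on either cluster array, so only a bound holds: Snai3 was at least 3.34-fold lower in clusters (log2 fold change -2.36 ± 0.25, limma adjusted p = 3.63e-05). The size of the Snai3 difference depends on how background is removed, with -1.32 on background-subtracted signals without detrending and -0.61 with normexp correction (limma adjusted p = 0.0219), both smaller than the bound. In each of these fits all factors had the same SE (0.34 and 0.24), so this p-value does not reflect the spread of Snai3 itself. Its probe lies at chr8:124980233-124980292, minus strand, mm9. Snai3 therefore moved opposite to Snai1 and Snai2 within the same family.

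Twist1 is a basic helix-loop-helix factor of cranial mesoderm and neural crest. Its signals were 2.79 and 2.53 in clusters, against -6.22 and -5.93 in islets, where neither array was well above background. Twist1 was therefore at least 261-fold higher in clusters (log2 fold change 8.73 ± 0.24, limma adjusted p = 9.60e-09). With normexp background correction the Twist1 log2 fold change was 4.90, and 7.32 on background-subtracted signals without detrending, both smaller than that bound. The probe lies at chr12:34644411-34644470, plus strand, mm9.

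Twist2, also called Dermo1 and known from dermis and connective tissue, had signals of 1.70 and 1.51 in clusters, against -3.32 and -3.70 in islets. Unlike Twist1, it was well above background on all 4 arrays. Its log2 fold change was 5.12 ± 0.25 (34.7-fold, limma adjusted p = 1.81e-07), and 3.46 with normexp. The probe lies at chr1:93744519-93744577, plus strand, mm9.

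Zeb1, which represses E-cadherin and the miR-200 family, had signals of 3.21 and 3.03 in clusters, against -0.90 and -1.0 in islets. It was well above background on every array, and each group's arrays nearly coincided. Its log2 fold change of 4.07 ± 0.23 (16.8-fold, limma adjusted p = 5.30e-07) was the smallest among the 7 higher factors, and was 3.65 with normexp.

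Zeb2, also called Sip1, was read by 3 probes. The brightest, which represents the gene and starts at base 5433 of its transcript (chr2:44842774-44842833, minus strand, mm9), had signals of 3.89 and 3.70 in clusters, against -2.13 and -2.06 in islets. The log2 fold change was 5.88 ± 0.23 (59.0-fold, limma adjusted p = 5.10e-08), and 5.01 with normexp. A further Zeb2 probe nearer the transcript's 3′ end, at base 8169 (chr2:44840038-44840097), had signals of 0.12 and -0.06 in clusters, against -6.41 and -6.76 in islets, neither of which was well above background. The direction of both probes was the same, and the limma fit over all probes gave 6.61 ± 0.25 for this one. The last Zeb2 probe, at base 11 of an Ensembl transcript (chr2:44965914-44965973), had signals of -4.93 and -5.06 in clusters, against -4.62 and -4.51 in islets. It was above background only on islet replicate 1, did not pass the filter and was not tested.

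Prrx1, a homeobox gene of limb and craniofacial mesenchyme, was read by 2 probes for different transcript variants. The probe for variant 2 (chr1:165175375-165175434, minus strand, mm9) had signals of 6.26 and 5.98 in clusters, against -1.36 and -1.11 in islets. The log2 fold change was 7.36 ± 0.24 (164-fold, limma adjusted p = 2.18e-08), and 6.79 with normexp. The Prrx1 probe for variant 3 (chr1:165185408-165185467) had signals of 3.90 and 3.67 in clusters, against -3.82 and -4.08 in islets, and a log2 fold change of 7.73 ± 0.24 in the fit over all probes. Both variants' probes were well above background on every array and higher in clusters.

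Prrx2, the paralog of Prrx1, has 1 probe (chr2:30736678-30736737, plus strand, mm9). Its spot on cluster replicate 1 was marked non-uniform by the scanner software and was left out, so Prrx2 was not in the fit. The remaining signals were 1.91 on cluster replicate 2, against -4.36 and -2.85 in islets, whose arrays differed by more than for any tested factor. With non-uniform spots kept, the Prrx2 signals were 1.30 and 1.91 in clusters, against -4.37 and -2.85 in islets. In that fit, where 56.3% of 24839 genes were called, 26.4% higher in clusters and 29.9% lower, the Prrx2 log2 fold change was 5.21 ± 0.57 (limma adjusted p = 0.00261).

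Tcf21, a basic helix-loop-helix factor of visceral mesenchyme, also called Capsulin or Pod1, was not well above background on any array. Its signals were -5.30 and -5.68 in clusters, against -5.21 and -4.81 in islets (chr10:22537563-22537622, minus strand, mm9). Without the filter the Tcf21 log2 fold change was -0.49 ± 0.29 (limma adjusted p = 0.264). Its level could not be read on either side, and no fold is given as a result.

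In the fit over all probes, 10 of the 13 probes passed the filter and all 10 were called (9 higher, 1 lower), where 26.4% of 34974 probes were higher in clusters, 26.8% were lower and 53.2% were called. The Twist1 probe and the Zeb2 probe at base 8169 passed the filter only through the clusters, and the Snai3 probe only through the islets. For these probes, passing the filter and being called are not independent. The calls for the 7 higher factors held under each of the 17 alternatives in which the gene was tested, as did that for Snai3. The fits with normexp and without detrending gave every factor the same SE and so did not use a gene's own spread. The plot of fold changes shows the spread over these alternatives.

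**Figure D2:**
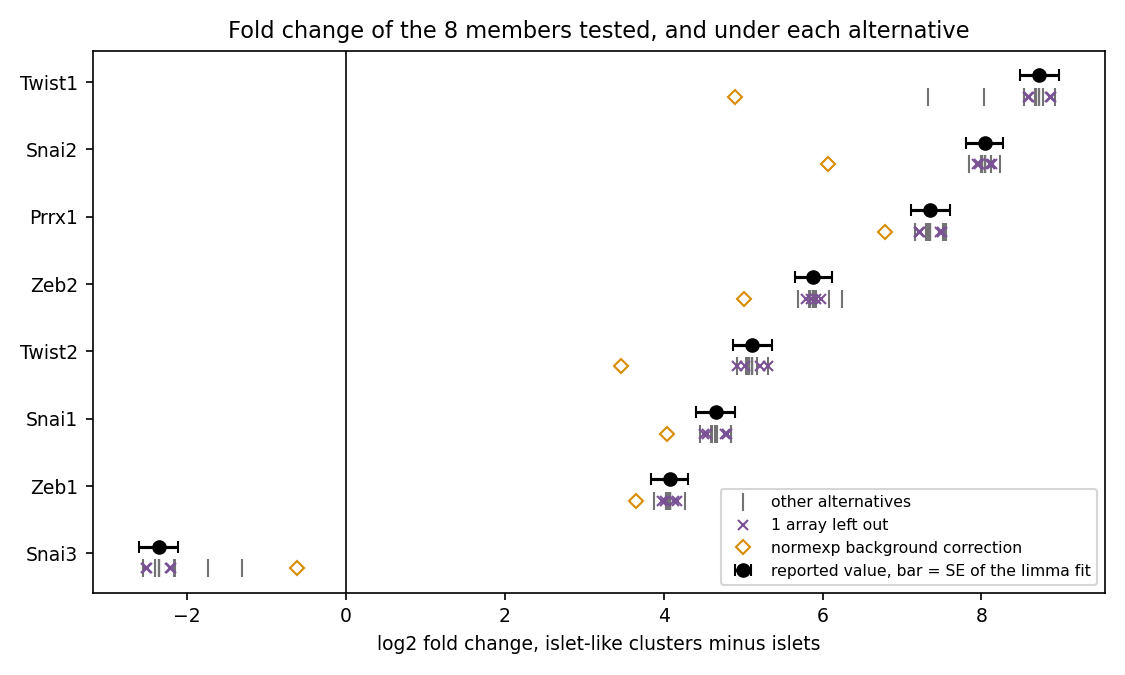
Log2 fold change, islet-like clusters minus islets (x axis), of the 8 factors tested (rows). Black points with bars are the reported value and its SE from limma, purple crosses leave out 1 array, orange diamonds use normexp background correction and grey ticks are the other alternatives. Twist1 is at 8.73 and Snai3 at -2.36. The diamond is the value nearest to 0 in every row.

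The labelled kinds of sample were checked against markers of the cells they could hold. Signal summed over the fibroblast and stellate markers, on the linear scale relative to the 75th percentile, was 969 and 799 in clusters, against 13.2 and 14.8 in islets. Of the 7 genes, 5 were higher in clusters (Thy1, Dcn, Pdgfra, Pdgfrb and Lum), the pericyte marker Rgs5 was lower, and Des did not pass. The hormone sum was 0.763 and 0.477 in clusters, against 148 and 24.8 in islets, with all 6 genes lower and Gcg, Iapp and Ppy not well above background in clusters. Islets also carried acinar markers, with sums of 0.972 and 0.910 in clusters, against 2609 and 3987 in islets. On both islet arrays this acinar sum lay far above the hormone sum, which itself differed widely between them. Signals of different probes compare only roughly, but the islet samples held acinar RNA as well as endocrine RNA. The sum over the 6 endothelial markers was 3.56 and 2.90 in clusters, against 16.1 and 16.2 in islets, with all 6 lower and Cdh5, Emcn, Robo4 and Tek not well above background in clusters. The macrophage and leukocyte sum was 31.7 and 27.0 in clusters, against 33.0 and 52.1 in islets, with 3 of 7 lower (Cd68, Aif1 and Ptprc) and none higher. Itgam, which did not pass, weighs most in the cluster sum (log2 signals of 4.78 and 4.54, against 4.13 and 4.38 in islets). All 4 duct markers and both erythroid markers tested were lower, and of 4 Schwann markers S100b was higher and 1 was lower. Most fibroblast markers thus moved in the same direction as the higher factors, and endocrine and acinar markers in the opposite direction. The part of these cells in the factors' differences was not tested.

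The E-box read by SNAIL and ZEB proteins was searched in promoter windows (250 bases before to 50 after each transcript start, RefSeq, GRCm38.p6). The letters CACCTG and CAGGTG cover both strands, since each is the reverse complement of the other, and the 2 spellings cannot overlap. Of 27025 genes with a window, 22.6% held at least 1 such E-box and 3.32% held several. Among the factors themselves 7 genes matched the table, and 1 of them, Snai1, held the motif, with its first base 126 bases before the start. Its 250 bases upstream (chr2:167537945-167538194, plus strand) are printed because the SNAIL E-box stands in the promoter of a SNAIL gene. Those of Crb3, Epcam and Rab25 (chr17:57061951-57062200, plus, chr17:87635729-87635978, plus, and chr3:88548280-88548529, minus) are printed because these epithelial genes carry several copies and were lower in clusters. Capitals mark the E-boxes.
Snai1: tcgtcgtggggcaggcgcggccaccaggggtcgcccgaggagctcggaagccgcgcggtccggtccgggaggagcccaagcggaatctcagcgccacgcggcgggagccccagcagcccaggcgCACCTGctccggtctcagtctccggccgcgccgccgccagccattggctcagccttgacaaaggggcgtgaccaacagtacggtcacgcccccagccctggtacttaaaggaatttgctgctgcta
Crb3: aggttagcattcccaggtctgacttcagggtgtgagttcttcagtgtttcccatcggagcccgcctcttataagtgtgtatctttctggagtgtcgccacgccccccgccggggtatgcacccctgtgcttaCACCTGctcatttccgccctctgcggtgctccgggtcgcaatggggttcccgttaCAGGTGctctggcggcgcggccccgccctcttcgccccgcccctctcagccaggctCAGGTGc
Epcam: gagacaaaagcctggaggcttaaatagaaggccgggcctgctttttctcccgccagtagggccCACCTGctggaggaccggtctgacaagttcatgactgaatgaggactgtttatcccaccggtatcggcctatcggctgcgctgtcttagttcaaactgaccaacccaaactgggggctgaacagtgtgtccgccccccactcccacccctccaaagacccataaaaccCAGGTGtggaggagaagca
Rab25: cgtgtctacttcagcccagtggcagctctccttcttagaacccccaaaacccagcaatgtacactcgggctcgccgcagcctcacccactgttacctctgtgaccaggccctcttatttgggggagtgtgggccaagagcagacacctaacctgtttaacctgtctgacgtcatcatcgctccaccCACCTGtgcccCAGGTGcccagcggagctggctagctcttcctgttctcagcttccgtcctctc

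Crb3, which builds the apical polarity complex, has 3 E-boxes in the stretch shown, and Epcam, an epithelial adhesion molecule, and Rab25, a GTPase of apical recycling, have 2 each. Of 18 genes listed as repressed in EMT, 13 matched the promoter table. The E-cadherin gene Cdh1 had no window there, so its promoter was not searched. The motif stood in 12 of the 13 (92.3%), all but Tjp1, and 8 (61.5%) held several. This list names known epithelial genes, and part of what is known of them is repression through this motif. Of the listed mesenchymal genes 1 of 10 matched genes held it (Sparc), and of the epithelial regulators 3 of 6 (Elf3, Foxa1 and Grhl3). Acinar markers, which are no EMT list, held it in 4 of 7 (57.1%). A match describes letters in a window and not binding.

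**Figure D3:**
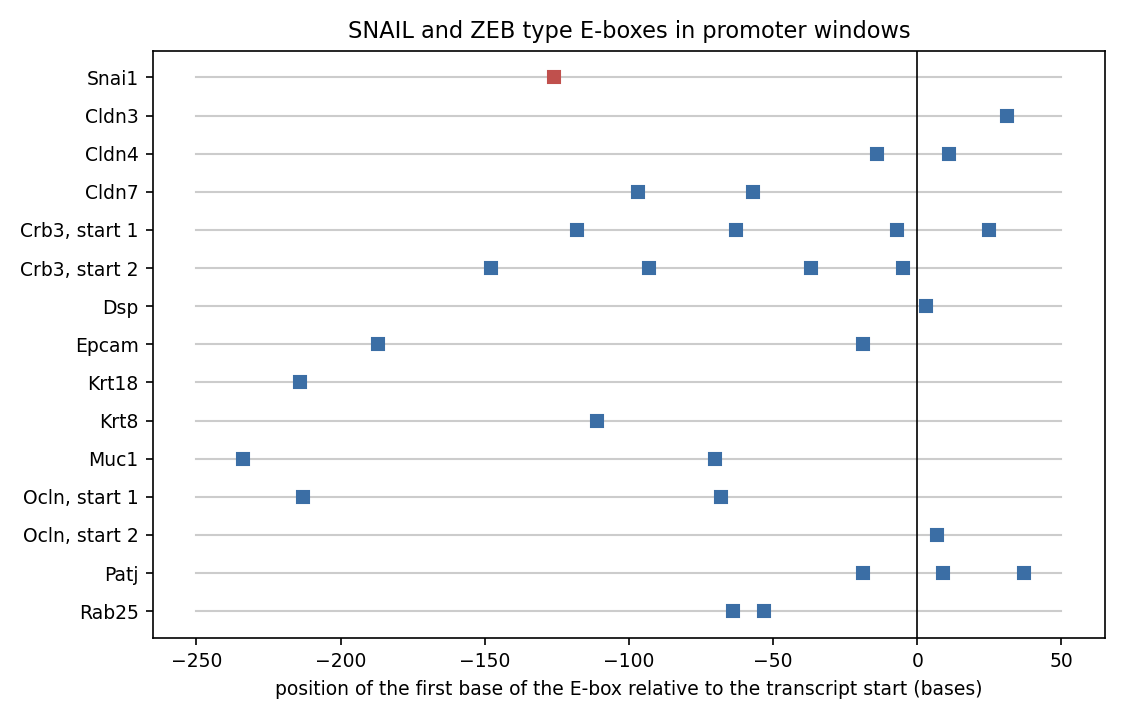
Position of the first base of each CACCTG or CAGGTG relative to the transcript start (x axis, bases) in Snai1 (red) and in the 12 genes of the epithelial list that hold one (blue); grey lines are the windows searched and genes with 2 starts have 2 rows. Crb3 holds the most, and Snai1 has 1 at -126.

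Epithelial genes known to be repressed in EMT were mostly lower in clusters. Of 18 tested, 17 were lower and none was higher, where 28.2% of all genes tested were lower. The median log2 fold change was -8.88 (-9.17 to -4.28 over the alternatives). Only 6 of the 18 were well above background on both cluster arrays. The others passed the filter on dim probes only through islets, so their calls and this median are not independent of it. Cdh1, which encodes E-cadherin, had signals of -6.66 and -6.59 in clusters, not well above background, against 6.57 and 6.91 in islets. Cdh1 was thus at least 3944-fold lower in clusters (log2 fold change -13.36 ± 0.24, limma adjusted p = 1.84e-09). Epcam was at least 878-fold lower, and the simple epithelial keratin Krt18 at least 28625-fold lower. The tight junction gene Cldn3 had a log2 fold change of -12.46 ± 0.26, although its probe was not well above background on cluster replicate 1, and Krt8, the keratin partner of Krt18, was at least 23682-fold lower. Krt8 had a log2 fold change of -15.53 ± 0.36, and -16.13 or -14.94 with cluster replicate 1 or 2 left out. Crb3 had a log2 fold change of -7.81 ± 0.23 and Rab25 one of -8.21 ± 0.49, with the Rab25 value at -9.08 without cluster replicate 1 and -7.34 without cluster replicate 2. The Crb3 probe was not well above background on cluster replicate 1, nor that of Rab25 on cluster replicate 2, so both values rest in part on signals at background. Averaging the Crb3 probes gave -9.20, and the authors' values gave -12.19 for Cdh1. These sizes, bounds included, hold for the processed signal: with normexp the log2 fold changes were -9.15 for Cdh1, -6.77 for Epcam, -11.92 for Krt18, -11.69 for Krt8, -9.69 for Cldn3, -5.28 for Crb3 and -5.81 for Rab25. On background-subtracted signals without detrending they were -11.42 for Cdh1, -9.17 for Epcam, -14.26 for Krt18 and -13.99 for Krt8. For Cdh1, Epcam, Krt18 and Krt8 both sets of values are smaller than the bounds given. Tjp1, a junction scaffold that many cell types use, did not pass (log2 fold change -0.45, adjusted p = 0.139) but passed under 2 alternatives. These genes are also expressed in acinar and duct cells, whose markers moved the same way as given above.

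The regulators that hold the epithelial state, several of which repress Zeb1 or are repressed by it, were also lower. This held for 10 of 11 tested, where 28.2% of all genes tested were lower, with a median of -4.42 (-5.53 to -2.91 over the alternatives). Only 5 of the 11 were well above background on both cluster arrays. Since the others passed the filter only through islets, their calls are not independent of it. Foxa2, a forkhead factor of endoderm, was at least 1447-fold lower in clusters, and Elf3, an epithelial ETS factor, at least 201-fold lower. The Foxa2 log2 fold change was -11.50 ± 0.38, and -12.11 or -10.88 with cluster replicate 1 or 2 left out. With normexp it was -7.64 for Foxa2 and -4.82 for Elf3, and without detrending -10.04 and -7.04, sizes below the bounds given. Grhl2, a Grainyhead factor that opposes Zeb1, had signals of -4.25 and -4.44 in clusters, against 2.82 and 2.85 in islets (log2 fold change -7.18 ± 0.23, limma adjusted p = 1.84e-08), -5.11 with normexp and -5.53 with its probes averaged. Esrp2, a splicing factor of epithelial exons, had signals of -6.82 and -4.01 in clusters, against 2.11 and 2.06 in islets. Its cluster arrays differed widely, and replicate 1 was not well above background: the Esrp2 log2 fold change was -7.50 ± 0.70, and -6.10 or -8.91 with 1 or the other cluster array left out, and with a variance trend and robust fit it did not pass (adjusted p = 0.0555). With normexp the Esrp2 value was -4.37. Ovol2, a zinc finger repressor of Zeb1, was the exception, with a log2 fold change of -0.49 (adjusted p = 0.114), though it passed under 3 alternatives. Where only probes well above background on all arrays were kept, genes without such a probe left the fit. Among those that stayed, 5 epithelial genes and 4 regulators were called lower.

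Genes known to rise in EMT were mostly higher in clusters, 16 of 18 tested, with 1 lower (26.6% and 28.2% over all genes tested). Their median was 4.65. Fn1, fibronectin, had signals of 9.13 and 8.89 in clusters, against 1.66 and 0.71 in islets (log2 fold change 7.82 ± 0.32, limma adjusted p = 6.89e-08). Mmp2, a gelatinase, had a log2 fold change of 7.70 ± 0.24, and Cdh2, N-cadherin, one of 4.56 ± 0.24. Vim, the intermediate filament of mesenchymal cells, was higher by 2.91 ± 0.24, with signals of 6.68 and 6.43 in clusters, against 3.75 and 3.55 in islets. Cdh11, a mesenchymal cadherin, had a log2 fold change of 8.52 ± 0.44, but its probe was not well above background on islet replicate 2. The value was 5.53 with normexp, and 2.27 was obtained from probes well above background on all arrays. The Cdh11 value was 9.31 without islet replicate 1 and 7.72 without islet replicate 2. Acta2, smooth muscle actin and a mark of myofibroblasts, did not pass, with signals of -1.24 and -1.34 in clusters, against 0.34 and -0.95 in islets (log2 fold change -0.99, adjusted p = 0.0507). The Acta2 value was -0.34 without islet replicate 1 and -1.63 without islet replicate 2 (adjusted p = 0.0109), and it passed under 7 alternatives in all.

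**Figure D4:**
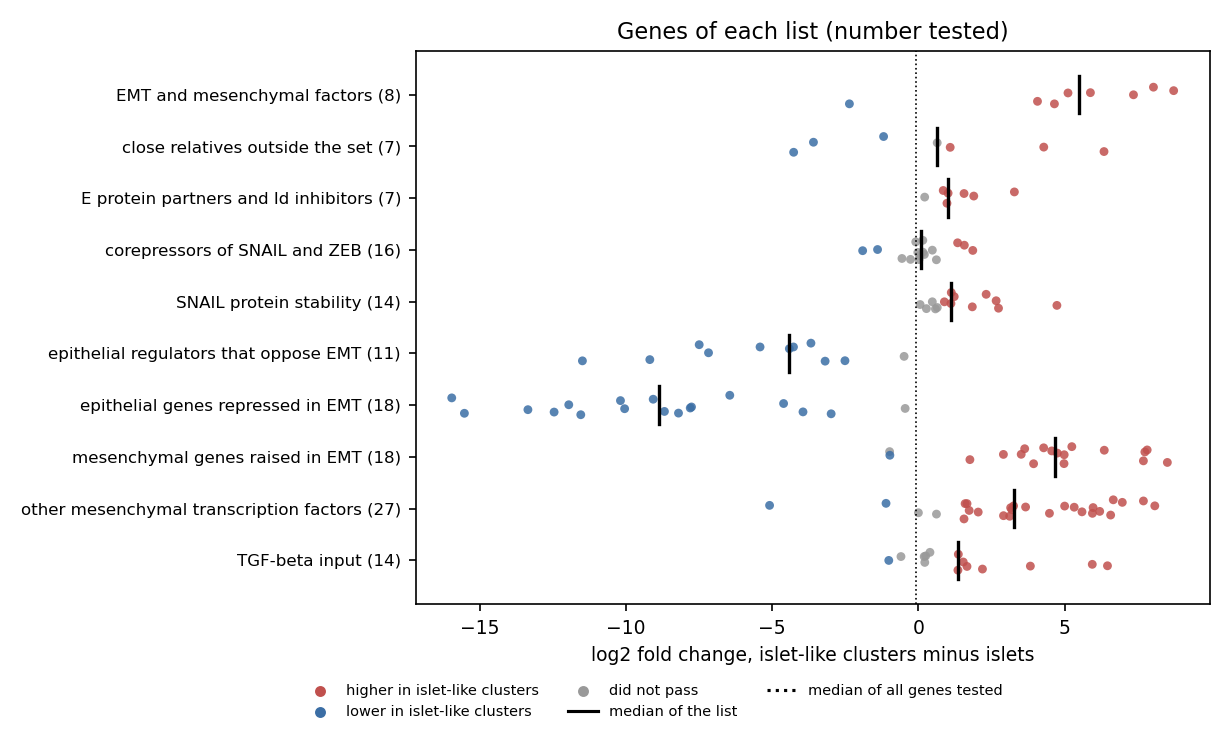
Log2 fold change, islet-like clusters minus islets (x axis), of every tested gene in each list (rows, number tested in brackets); red points were called higher in clusters, blue points lower and grey points did not pass, black bars are list medians, and the dotted line is the median of all genes tested (-0.10). The epithelial lists lie left of 0, and 7 of the 8 factors, most mesenchymal genes and most other mesenchymal factors lie right of it.

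E proteins are the partners with which TWIST proteins and TCF21 bind DNA, and Id proteins take those partners away. Of 7 such genes, 6 were higher in clusters and none was lower (26.6% and 28.2% over all genes tested), with a median of 1.01. The E protein gene Tcf4 had a log2 fold change of 1.56 ± 0.23 (limma adjusted p = 3.46e-04), Tcf12 one of 1.01 ± 0.25 (adjusted p = 0.00676) and Tcf3 one of 0.98 ± 0.24 (adjusted p = 0.00685). Id4 was higher by 3.28 ± 0.24, Id3 by 1.89 ± 0.24 and Id2 by 0.85 ± 0.23, whereas Id1 did not pass (0.21, adjusted p = 0.469). The calls of Tcf3, Tcf12 and Id2 were not stable: without cluster replicate 1, islet replicate 1 or islet replicate 2 the list had 3 higher genes, with adjusted p for Tcf3 of 0.0577, 0.122 and 0.235 for Tcf12 of 0.0660, 0.0718 and 0.282, and for Id2 of 0.0706, 0.213 and 0.292. With normexp the Id4 value was 1.61.

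Corepressors are the proteins through which SNAIL and ZEB factors silence genes. Of 16 tested, 3 were higher in clusters, 2 were lower and 11 did not pass, where 26.6% of all genes tested were higher and 28.2% lower. The median of the list was 0.10 (-0.09 to 0.29 over the alternatives). With array-median scaling, or with a variance trend and robust fit, 5 were higher. The histone deacetylase genes Hdac1 (1.57 ± 0.25) and Hdac2 (1.34 ± 0.25) and the LIM protein gene Wtip (1.86 ± 0.23) were the higher ones on the log2 scale. The lower ones were Ezh2, the Polycomb methyltransferase (-1.91 ± 0.24), and Ajuba, a LIM adaptor of SNAIL (-1.40 ± 0.28). The Ajuba call was lost without cluster replicate 2 or islet replicate 1 (adjusted p = 0.0565 and 0.121), which left 1 lower corepressor, and that of Hdac2 without islet replicate 2 (adjusted p = 0.107). Ctbp1, the ZEB corepressor, did not pass (0.61, adjusted p = 0.0544) but passed under 8 alternatives.

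SNAIL protein is short-lived, and enzymes that mark, degrade or stabilise it set its level beyond its mRNA. Of 14 such genes, 9 were higher in clusters, none was lower, and the median was 1.12. Among all genes tested, 26.6% were higher, 28.2% were lower and 54.8% were called in either direction. Loxl3 and Loxl2, lysyl oxidase-like proteins that stabilise SNAIL, had log2 fold changes of 4.74 ± 0.24 (2.51 with normexp) and 2.74 ± 0.24. Lats2, a kinase that retains SNAIL in the nucleus, was higher by 2.32 ± 0.25. Btrc, the ubiquitin ligase subunit that targets phosphorylated SNAIL for breakdown, was higher by 2.66 ± 0.24 (2.05 with normexp). Averaging the probes of each gene gave 0.63 for Lats2 and 0.72 for Btrc, still past the threshold (adjusted p = 0.0481 and 0.0363). Genes that stabilise and genes that degrade SNAIL were thus both among those higher in clusters, and 5 genes of the list were called higher when islet replicate 1 or islet replicate 2 was left out.

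TGF-beta is the best known inducer of SNAIL and ZEB genes. Of 14 genes of its ligands, receptors and transducers, 8 were higher in clusters, 1 was lower and 5 did not pass, with a median of 1.36. Tgfb2, a ligand, had signals of 2.38 and 2.15 in clusters, against -2.33 and -0.80 in islets (log2 fold change 3.83 ± 0.43, limma adjusted p = 5.81e-05), and its value was 3.06 without islet replicate 1, 4.60 without islet replicate 2, 2.89 with its probes averaged and 3.18 with normexp. Tgfbr3, the co-receptor betaglycan, was higher by 5.95 ± 0.23 (5.34 with normexp), and Tgfbi, a matrix protein induced by the pathway, by 6.47 ± 0.26. Tgfbr2, a signalling receptor, was higher by 2.19 ± 0.25 on its brightest probe, but averaging its probes gave 0.55 (adjusted p = 0.0728). Tgif1, a corepressor of SMAD proteins, was lower (-1.02 ± 0.23), a call lost without islet replicate 1 or 2 (adjusted p = 0.110 and 0.203). The SMAD genes Smad2, Smad3 and Smad4 did not pass.

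Close relatives of the 10 factors did not share one direction. Of 7 tested, 3 were higher in clusters, 3 were lower and 1 did not pass, where 26.6% of all genes tested were higher and 28.2% lower. The median of these relatives was 0.64 (-0.00020 to 0.87 over the alternatives). Hand2, a basic helix-loop-helix factor of heart and limb, had signals of 3.28 and 3.05 in clusters, against -3.23 and -3.13 in islets (log2 fold change 6.35 ± 0.23, limma adjusted p = 3.53e-08), and 4.86 with normexp. Scrt1, a SNAIL-related factor of neurons, was higher by 4.29 ± 0.24 (2.93 with normexp). Scx, the scleraxis gene of tendon and a relative of Twist1, had signals of -2.30 and -2.53 in clusters, against 1.78 and 1.93 in islets (log2 fold change -4.27 ± 0.23, limma adjusted p = 4.28e-07), and -3.36 with normexp. Tcf15, a factor of somites, was at least 5.24-fold lower in clusters, with a log2 fold change of -3.59 ± 0.47, and -4.48 or -2.71 with cluster replicate 1 or 2 left out. With normexp the Tcf15 value was -0.93, and -2.0 without detrending, sizes below the bound. Scrt2 did not pass (0.64, adjusted p = 0.0618). The homeobox gene Alx4 (-1.19), a relative of the PRRX genes, passed, but its call was lost without islet replicate 2 (adjusted p = 0.147).

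Transcription factors of mesenchyme from other families were higher in clusters in 23 of 27 tested, with 2 lower (26.6% and 28.2% over all genes tested). Their median was 3.25 (1.99 to 3.56 over the alternatives). Nr2f1, a nuclear receptor, had signals of 5.05 and 4.81 in clusters, against -2.45 and -3.08 in islets (log2 fold change 7.70 ± 0.27, limma adjusted p = 2.99e-08), and 6.49 with normexp. Tbx18, a T-box factor of mural and mesothelial lineages, was at least 88.1-fold higher in clusters, and Meox2, a homeobox factor of somites and limb muscle, at least 101-fold higher, both being not well above background in islets. With normexp the log2 fold changes were 3.50 for Tbx18 and 3.95 for Meox2. Without detrending they were 5.74 for Tbx18 and 6.41 for Meox2. All of these sizes are below the bounds given. Isl1, a LIM homeobox factor needed in pancreatic mesenchyme and also in endocrine cells, was higher by 6.97 ± 0.30 (5.24 with normexp). Heyl, a Notch target of vascular smooth muscle, was lower (-5.09 ± 0.27, and -2.80 with normexp), with its probe not well above background on cluster replicate 2, as was Meis2, a TALE homeobox gene (-1.11 ± 0.23). The Meis2 call was lost without islet replicate 1 or 2 (adjusted p = 0.132 and 0.0882). With only probes well above background on all arrays, 13 of these factors were called higher.

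For each factor well above background on all 4 arrays, the genes with the most similar values were found among 20780 genes that were also well above background everywhere. Likeness was the distance between the 4 values after each gene's mean was subtracted, so small distances mean nearly equal differences between groups and between replicates. Gja1, a gap junction connexin, was nearest to Snai1 (distance 0.0376) and Ikbip nearest to Zeb1 (0.0197). Cadm3 was nearest to Snai2 (0.0652), Pdlim2 (0.0947) and Nr2f2 (0.117) to Twist2, and B3galnt1 (0.0729) and the matrix gene Fbln2 (0.0840) to Zeb2. This likeness over 4 arrays in 2 groups is a description.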

How the data were processed

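RNA from 2 samples of islet-like clusters and 2 of islets was hybridised to 1-colour Agilent arrays, from 500 ng of total RNA copied with an oligo-dT primer and labelled with Cy3, per the labels. Groups and replicate numbers were taken from sample titles. Spot intensity in the deposited files is linear scanner output of Agilent Feature Extraction 11.5.1.1, per the file headers, with probe positions on mm9. The authors' value table holds log2 values, which followed the scanner values of the same array (r = 0.99996 or higher over 55681 probes, no centring per gene, column medians of -3.61 and -3.70 for clusters and -3.50 and -3.37 for islets). Its stated processing is not given in the sources used here, and it served as an alternative.

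Values were log2 of the processed signal minus each array's 75th percentile. Control spots and spots flagged non-uniform were left out (for clusters 510 and 2 spots, for islets 26 and 4), and 490 probes lacking a value were dropped. Well above background were 59.7% and 62.3% of spots in clusters and 63.6% and 61.2% in islets, and 0 were saturated. Correlations were 0.985 between cluster arrays, 0.989 between islet arrays and 0.796 to 0.810 between groups. A group in which both arrays were well above background sufficed to keep a probe (34974), and the brightest probe stood for a gene. The test was limma 3.58.1 under R 4.3.3 (lmFit, eBayes, 2-sided, Benjamini-Hochberg over 24596 genes, threshold 0.05, 9.06 total degrees of freedom, of which 2 are residual). The fit was also run on simulated data with normal noise and far fewer changed genes than were called here. No result here rests on that run. Precision is limited by how few arrays there are. A gene with no probe well above background in a group has only a bound there: the bright group's mean against the dim group's mean, per array, of the higher of the lowest well-detected signal and the probe's own. Such a bound holds for the processed signal and not for other background corrections. Members and lists were chosen with earlier results of these data known. Genes named are all members, up to 4 called genes per list and direction with the largest changes, Cdh1, Epcam, Vim, Cdh2, Fn1, Tcf3, Tcf4 and Tcf12, and the nearest genes by pattern, except that a few genes the rule takes are not reported here; Crb3 and Rab25, chosen for their promoters, Tjp1, Ovol2, Acta2, Id1, Ctbp1, Scrt2, the SMAD genes and the markers were named after their values were seen. Same-numbered arrays did not deviate together (r = -0.0235). Promoters are from RefSeq (GRCm38.p6).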

Additional observations from a re-analysis of the deposited data

Results flagged for a closer look

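The Prrx2 spot that was left out on islet-like clusters replicate 1 as non-uniform carried a signal of 1.30, above both islet arrays (-4.37 and -2.85). It was singled out because it is a signal outside the reported comparison that exceeds the level in islets.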

How the results depend on the processing

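Under 17 alternatives (background correction, detrending, scaling, dim-probe filter, floor, non-uniform spots, probe averaging, variance model, the authors' values, a block and 4 fits without 1 array) the number of factors higher in clusters was 6 to 8. The number lower was 1, except 0 where only probes well above background on all arrays were kept, since Snai3 then leaves the fit. Over all genes, 13490 were called, and 7650 to 10120 when 1 array was left out: 8266 without islet replicate 1 and 7650 without islet replicate 2. The lone array of a group is then assumed to vary like the other group. With the replicate number as a block, 11307 genes were called in all and the factors' counts of 7 and 1 were the same. Called genes of the 9 gene lists set beside the factors, markers not included, numbered 75 to 114 (main value 104). Called probes of the factors numbered 7 to 11 (main value 10). Both lowest counts are from the fit on probes well above background on all arrays, in which fewer genes were tested. A slide or scan block was not run, since all arrays share 1 slide and 1 scan time. Other scalings moved the median of all genes from -0.10 to 0.09 (array median) and -0.29 (percentile over well-detected probes). The factors' directions did not change under any of the 17 alternatives in which they were tested. Signals near background limit Snai3, Tcf21 and the islet values of Twist1.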
